A study of Mus musculus with 7 samples.

Results

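The genes described here are those of the interferon response and the Toll-like receptors, measured in glomeruli, the filtering units of the kidney. They were chosen by symbol: the numbered or l-suffixed genes of the Irf, Ifit, Tlr, Oas, Stat and Gbp families, plus a list of single interferon-induced genes, sensors and adaptors. Of the 12958 gene symbols in the tables, 51 were members. Isg15, Mx1 and Zbp1, which the rule also names, were not analysed here. The symbol pattern also caught Irf2bp1, Irf2bp2 and Irf2bpl, which encode partner proteins of IRF2 and not interferon regulatory factors. They are described apart.

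The knockdown animals were 3 BALB-C mice, an inbred strain, that carried an siRNA transgene against Shroom3, whose product binds actin. The 4 control mice were littermates lacking that transgene. All 7 were males of 14 weeks, and mice of both groups had doxycycline in food and drinking water for 6 weeks, beginning when they were 8 weeks old. The promoter that drives the transgene is not given in the sources used here. Each mouse gave 1 library of poly-A RNA from glomeruli collected with magnetic beads and a sieve.

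The deposited values are logarithms, taken here to base 2, and whether they were scaled to gene length is not stated, so results compare levels between groups. Mean values served to choose which genes to show, and no order of level among genes is drawn from them. Differences are knockdown minus control on this log2 scale. A gene is said to have risen or fallen when its adjusted p in limma (Benjamini-Hochberg over all 12958 genes) was at most 0.05. Sequencing depth is unknown. Titles came in 2 styles: 5 libraries were titled G (2 knockdown, 3 control) and the other two CB6 (knockdown replicate 3 and control replicate 4). The deviations of the CB6 libraries from their group means were nearly mirror images across genes (correlation -0.958, and -0.945 over the members). Shroom3 itself (chromosome 5, 92683435 to 92965318) held 10.80, 10.91 and 10.89 in the knockdown libraries, against 10.94, 10.85, 11.36 and 11.06 in the control libraries. The groups overlapped (difference -0.19, SE 0.11; limma, Benjamini-Hochberg adjusted p = 0.417; two-sided exact permutation p = 0.229), so this gene gives no check on the labels, and groups are named as labelled. All 9 podocyte markers were measured, with a log2 summed level of 17.84 to 18.11 in knockdown and 17.68 to 18.12 in control libraries. Of these markers 7 of 9 had a negative difference, where 56.2% of all genes were positive. Groups did not overlap for 4 of 9, each lower in knockdown, where 7.55% of all genes lay lower without overlap. Magi2, which encodes a junctional scaffold, fell, as did 2.02% of all genes. The 9 proximal tubule markers were also present, with summed levels of 16.93 to 17.33 in knockdown and 17.34 to 17.74 in control libraries.

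Interferons act through receptors that activate JAK kinases. Type I interferon then assembles STAT proteins and IRF9 into a complex that binds the interferon-stimulated response element (ISRE), while interferon-gamma makes STAT dimers that bind the gamma-activated site (GAS). Upstream of interferon, Toll-like receptors and the cytosolic helicases RIG-I (Ddx58) and MDA5 (Ifih1) recognise microbial or misplaced nucleic acids and other microbial products. In the kidney these pathways are best known from lupus nephritis and infection.

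The promoters of the members were searched for both elements. RefSeq promoters (GRCm38.p6, 250 bases before to 50 bases after each start) were found for 38 members. Those without an entry included Gbp4, Gbp6, Gbp9, Ifi27, Mx2, Oas1b, Oas2, Rtp4, Tlr4, Tlr7 and Usp18. The ISRE was searched as GAAA, any 2 bases and GAAA, and the GAS as TTC, any 3 bases and GAA, both on either strand. An ISRE stood in 18 of 38 members (47.4%), against 3.61% of the 9985 measured genes with a promoter entry and 3.99% of all 27025 genes in the RefSeq table. A GAS stood in 13 of 38 members (34.2%), against 8.28% of the measured genes and 9.55% of all genes in the table. Of the 7 members with both, the letters of both motifs overlapped in 2. The ISRE was found in 5 of 5 guanylate-binding protein promoters, 7 of 12 effector promoters, 2 of 3 promoters of the RNA sensors and their adaptor, 2 of 6 STAT promoters, 1 of 6 IRF promoters and 1 of 3 promoters of the Toll-like receptor group, which was that of Myd88. Such matches are descriptions of the sequence and not binding sites. The 4 promoters below are those with an ISRE whose genes had the highest mean values, shown 5′ to 3′ with the ISRE in capitals, because they show the element in a guanylate-binding protein, a sensor, an antiviral kinase and a signalling factor that are described further on.
Gbp7: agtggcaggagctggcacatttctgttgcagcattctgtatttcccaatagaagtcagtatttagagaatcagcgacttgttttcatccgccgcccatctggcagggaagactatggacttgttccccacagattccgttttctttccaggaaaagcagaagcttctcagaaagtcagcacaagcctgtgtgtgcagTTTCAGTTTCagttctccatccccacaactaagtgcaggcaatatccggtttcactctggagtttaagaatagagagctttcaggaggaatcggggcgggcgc
Ddx58: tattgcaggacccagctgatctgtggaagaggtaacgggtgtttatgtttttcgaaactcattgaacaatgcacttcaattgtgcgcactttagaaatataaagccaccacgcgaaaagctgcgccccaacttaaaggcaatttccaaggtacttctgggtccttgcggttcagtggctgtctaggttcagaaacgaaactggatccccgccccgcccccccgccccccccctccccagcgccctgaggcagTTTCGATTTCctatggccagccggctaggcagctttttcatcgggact
Eif2ak2: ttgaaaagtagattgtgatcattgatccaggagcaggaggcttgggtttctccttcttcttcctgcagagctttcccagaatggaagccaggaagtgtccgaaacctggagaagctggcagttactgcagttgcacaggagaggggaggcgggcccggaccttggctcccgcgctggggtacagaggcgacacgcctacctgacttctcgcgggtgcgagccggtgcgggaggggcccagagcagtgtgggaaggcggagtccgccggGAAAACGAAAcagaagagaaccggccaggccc
Stat2: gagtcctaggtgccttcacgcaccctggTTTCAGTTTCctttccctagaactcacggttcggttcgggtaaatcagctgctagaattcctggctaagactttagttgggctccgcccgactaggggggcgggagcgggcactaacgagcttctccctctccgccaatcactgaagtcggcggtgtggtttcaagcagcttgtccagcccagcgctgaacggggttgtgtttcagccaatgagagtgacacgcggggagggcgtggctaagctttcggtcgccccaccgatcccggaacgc
The Gbp7 promoter (chr3:142530086-142530385, plus strand) and the Stat2 promoter (chr10:128270248-128270547, plus strand) carried the same 10 letters, TTTCAGTTTC, the reverse complement form of the element, beginning 53 and 222 bases before the start. The Ddx58 promoter (chr4:40239776-40240075, minus strand) carried TTTCGATTTC beginning 2 bases past the start. The Eif2ak2 promoter (chr17:78882523-78882822, minus strand) carried GAAAACGAAA beginning 18 bases past it.

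Across the 51 members, a single gene changed between knockdown and control glomeruli: Tlr7 fell, and none rose. Over all genes, 3.02% passed in either direction, 0.996% higher and 2.02% lower in knockdown. The member share of 1 in 51 (1.96%) was near that background. The median difference over the members was -0.01, against 0.02 over all genes. Of the 51, 24 had a positive and 27 a negative difference, where 56.2% of all genes were positive. Without Tlr7, the differences of the other 50 ran from -0.33 (Bst2) to 0.84 (Gbp6), and for 43 of the 50 they were smaller than 0.25. At an unadjusted p under 0.05 in limma there were 7 members, 5 higher and 2 lower (13.7%), where 18.4% of all genes were called in this way. Groups did not overlap for 8 members (15.7%), 5 higher and 3 lower, against 18.4% of all genes, 10.8% higher and 7.55% lower.

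**Figure D1:**
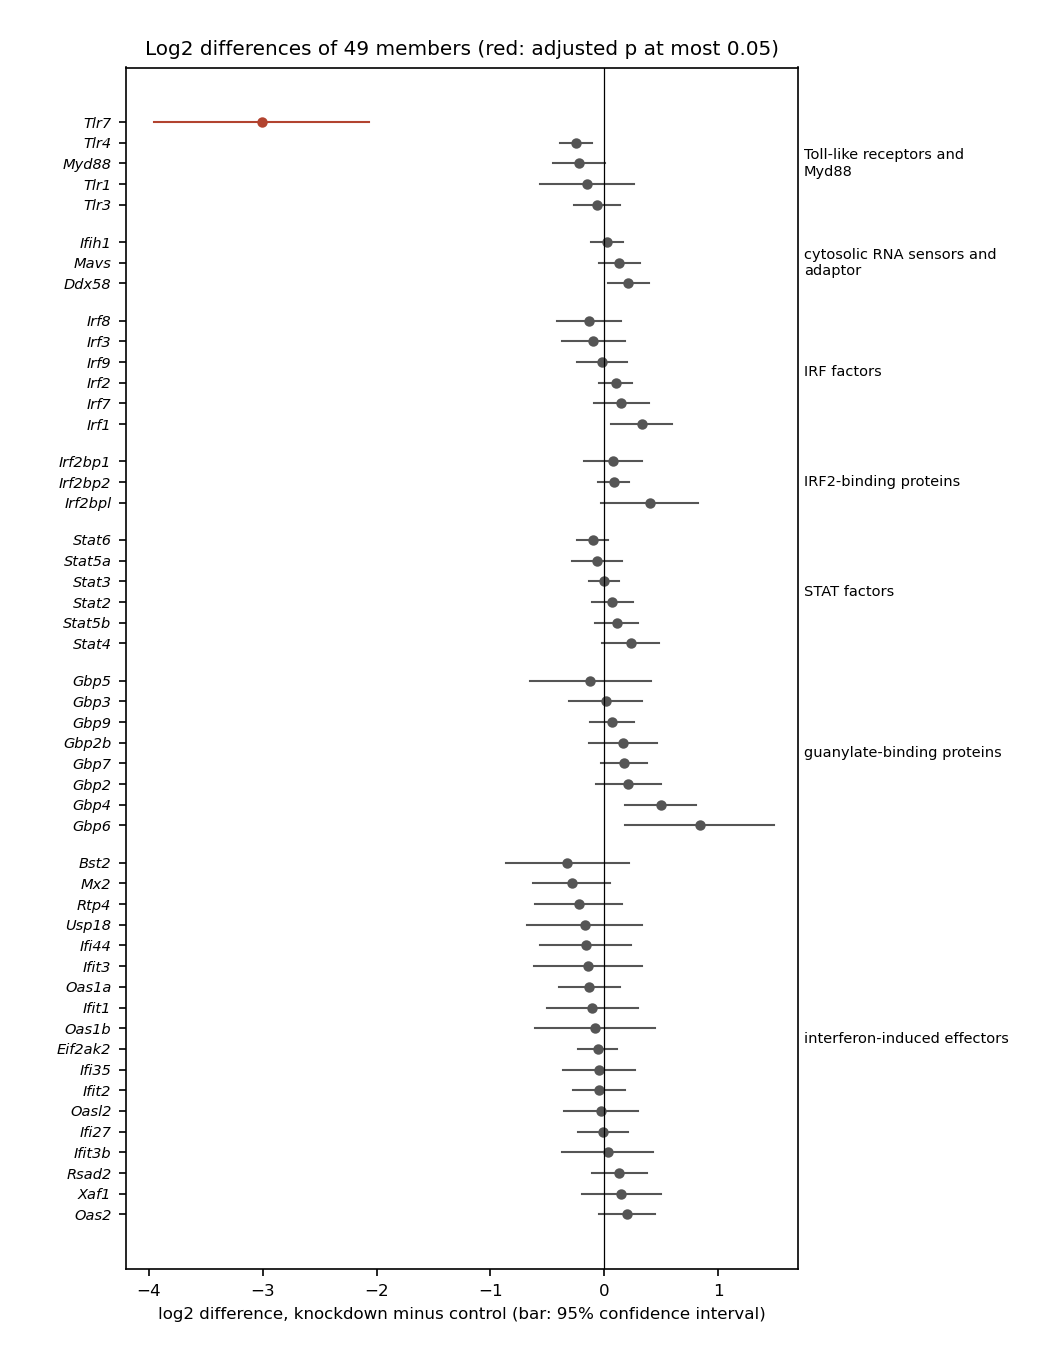
Log2 differences (knockdown minus control, horizontal axis) of 49 members by role, each point with its 95% confidence interval from limma. Tlr7, in red, lies at -3.01, while the others lie between -0.33 and 0.84.

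Tlr7, the endosomal receptor for single-stranded RNA, fell to 6.42 ± 0.58 (SD, n = 3) in knockdown, against 9.43 ± 0.76 (SD, n = 4) in control glomeruli. Its values were 6.85, 6.66 and 5.76 in knockdown libraries, against 9.41, 8.76, 9.05 and 10.50 in control libraries. Every knockdown library lay below every control library, with a gap of more than 1 between the groups. The difference was -3.01 (SE 0.41, 95% CI -3.95 to -2.07), an 8.05-fold lower level (limma, Benjamini-Hochberg adjusted p = 0.00771). The two-sided exact permutation test gave p = 0.0286, the smallest that the 35 splits of 3 against 4 libraries allow. Of the members it was run only on Tlr7, which had passed and whose groups did not overlap, so it adds no separate support. Groups did not overlap for 18.4% of all genes, 10.8% higher and 7.55% lower in knockdown. Of the 12958 genes, 6 had a more negative difference. Tlr7 (ENSMUSG00000044583.13) lies on the minus strand of chromosome X, 167304929 to 167330558 (GRCm38). The CB6 libraries were the extremes of both groups, and their pair differed by -4.74. The 5 libraries titled G alone gave -2.32, which still passed (limma, Benjamini-Hochberg adjusted p = 0.0164; 0.309% of all genes passed there, 0.108% higher and 0.201% lower). With title style as a covariate the difference was -3.03 (limma, Benjamini-Hochberg adjusted p = 0.0144, where 1.47% of all genes passed, 0.34% higher and 1.13% lower). Each group held a single CB6 library, so that fit could move the difference only slightly and is not a separate check of it. Tlr7 passed in each of the 15 alternative settings that tested it, with adjusted p from 0.00391 to 0.0345. These settings share libraries and are not separate checks.

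Leukocytes are a known source of Tlr7 transcript, and in bulk glomeruli fewer such cells and less RNA per cell cannot be told apart. Of 33 leukocyte markers 10 were measured, none of them granulocyte markers. Of the 10, only Mrc1, a mannose receptor of tissue macrophages, passed (10%, against 3.02% of all genes). The log2 summed level of the 10 was 12.06 to 12.13 in knockdown and 12.32 to 12.52 in control libraries. This sum weighs the genes with high values most. The mean of the 10 log2 values overlapped, with 8.03 to 8.20 in knockdown and 8.17 to 8.33 in control libraries. Differences were negative for 6 of the 10 and positive for 4, where 56.2% of all genes were positive. Mrc1 held 10.62, 10.79 and 10.62 in knockdown, against 11.51, 11.10, 11.13 and 11.44 in control libraries (difference -0.62, SE 0.11; limma, Benjamini-Hochberg adjusted p = 0.0258). Its adjusted p was 0.0504 once title style entered the fit. The pan-leukocyte gene Ptprc held 8.97, 9.04 and 9.02 in knockdown, against 9.02, 9.57, 9.22 and 9.30 in control libraries (difference -0.26; limma, Benjamini-Hochberg adjusted p = 0.289). Itgax differed by -0.24, with every knockdown library below every control library. Lyz2 and Flt3 each differed by -0.19, and Laptm5 by -0.02. On the positive side, Itgam differed by 0.18, Adgre1 by 0.12, the B cell gene Cd79a by 0.03 and the macrophage receptor gene Csf1r by 0.0034. The largest difference among the 10 was that of Mrc1. Among proximal tubule markers, 5 of 9 fell, against 2.02% of all genes, Cyp2e1 by the most (difference -3.26). Slc27a2 alone of the 9 had a positive difference (0.31). Of the podocyte markers Magi2 fell (difference -0.70; limma, Benjamini-Hochberg adjusted p = 0.00872, and 0.0186 with title style in the fit), and of the 5 mesangial markers Serpine2 fell (difference -0.39; limma, Benjamini-Hochberg adjusted p = 0.0454). All 8 endothelial markers had negative differences, with a median of -0.23, where 56.2% of all genes were positive, and none of the 8 passed. The part of these cells in the Tlr7 difference was not tested.

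**Figure D2:**
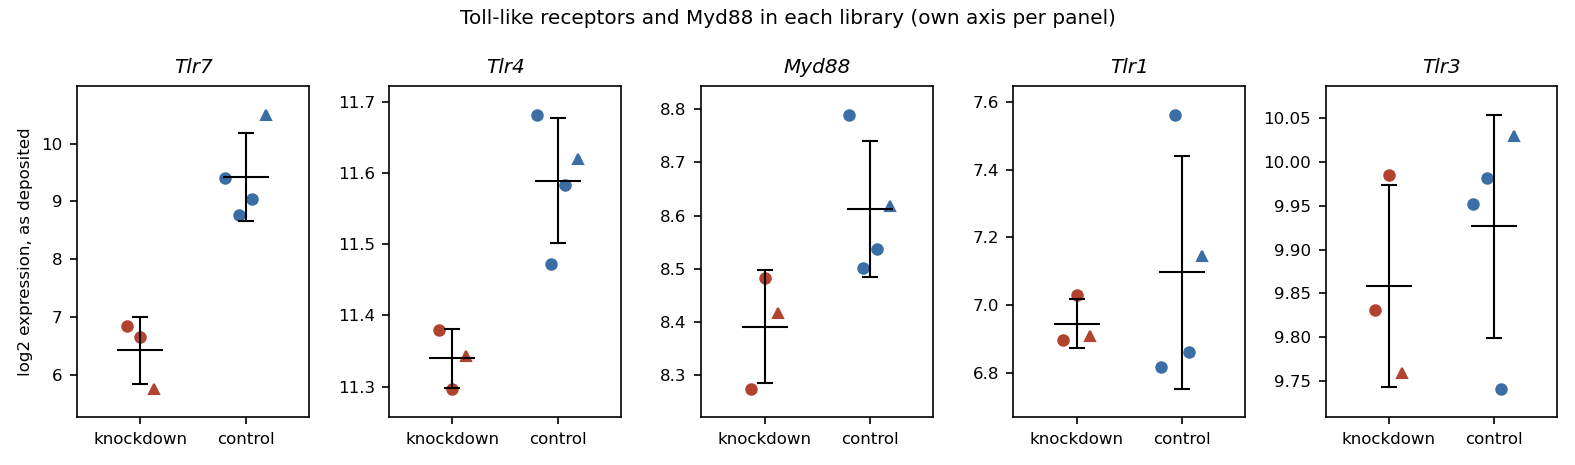
Log2 expression (vertical axis, scaled per panel) of the 4 measured Toll-like receptors and Myd88 in each library, knockdown left and control right. Circles are libraries titled G, triangles those titled CB6, and black marks show the mean ± SD. Tlr7 is separated by the widest gap (5.76 to 6.85 against 8.76 to 10.50), Tlr4 and Myd88 are separated by small gaps, and Tlr1 and Tlr3 overlap.

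The rest of the Toll-like receptor group had negative differences too small to pass. Tlr4, the receptor for bacterial lipopolysaccharide, held 11.38, 11.30 and 11.34 in knockdown, against 11.68, 11.47, 11.58 and 11.62 in control libraries. The groups did not overlap, and the difference was -0.25 (SE 0.06; limma, Benjamini-Hochberg adjusted p = 0.0695). Without control replicate 2, the lowest of the controls, Tlr4 passed with -0.29 (limma, Benjamini-Hochberg adjusted p = 0.0314). Myd88, the adaptor through which TLR4 and TLR7 signal, averaged 8.39 ± 0.11 (SD, n = 3) in knockdown mice, against 8.61 ± 0.13 (SD, n = 4) in control mice, a difference of -0.22 (SE 0.10; limma, Benjamini-Hochberg adjusted p = 0.286). Its 3 knockdown values, 8.28, 8.48 and 8.42, were all under the lowest control value of 8.50. Tlr1, a partner of TLR2 in lipopeptide recognition, held 6.90, 7.03 and 6.91 in knockdown and 6.82, 7.56, 6.86 and 7.15 in control libraries, which overlapped. Tlr3, the endosomal receptor for double-stranded RNA that signals without MYD88, averaged 9.86 ± 0.12 (SD, n = 3) in knockdown mice, against 9.93 ± 0.13 (SD, n = 4) in control mice (difference -0.07; limma, Benjamini-Hochberg adjusted p = 0.741). All 5 genes of the group were thus on the negative side, with a median of -0.22, though Tlr3 differed by 0.02 in the libraries titled G alone. Over all genes, 56.2% were positive. Groups did not overlap for 3 of the 5, where 7.55% of all genes lay lower in knockdown without overlap.

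None of the cytosolic RNA sensing genes passed. Ddx58, which encodes the helicase RIG-I and carries an ISRE at its start, held 11.01, 10.70 and 10.82 in knockdown, against 10.60, 10.72, 10.60 and 10.62 in control libraries. Knockdown replicate 2 fell within the control range, and the difference was 0.21 (SE 0.08; limma, Benjamini-Hochberg adjusted p = 0.199, unadjusted p = 0.0257). Ifih1, the gene of MDA5, held 10.18, 10.11 and 10.21 in knockdown, against 10.25, 10.13, 10.10 and 10.10 in control libraries, a difference of 0.02 with a 95% CI from -0.12 to 0.16. Mavs, the mitochondrial adaptor of both sensors, held 10.95, 11.01 and 11.05 in knockdown, against 10.72, 11.04, 10.93 and 10.81 in control libraries (difference 0.13, SE 0.08).

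The interferon regulatory factors did not pass either. Irf1, a transcription factor induced by interferon-gamma, held 9.19, 9.49 and 9.20 in knockdown, against 9.13, 8.73, 8.999 and 9.02 in control libraries. The groups did not overlap, and the difference was 0.33 (SE 0.12; limma, Benjamini-Hochberg adjusted p = 0.184, unadjusted p = 0.0223). Irf7, the amplifier of type I interferon production, held 7.83, 7.67 and 7.84 in knockdown, against 7.77, 7.50, 7.69 and 7.55 in control libraries (difference 0.15, SE 0.11). Irf2, which competes with IRF1, differed by 0.10, Irf3, activated by the sensors, by -0.10, Irf8, of myeloid cells, by -0.13, and Irf9, the DNA-binding part of the type I complex, by -0.02. Over the 7 factors measured, the differences had a median of -0.02, with 3 positive and 4 negative. This median was 0.07 without knockdown replicate 2, 0.05 without knockdown replicate 1, 0.01 without control replicate 2 and 0.01 in the libraries titled G alone. Of the IRF2 partner genes, Irf2bpl held 9.77, 10.13 and 10.01 in knockdown, against 9.75, 9.11, 9.96 and 9.48 in control libraries (difference 0.40, SE 0.19; limma, Benjamini-Hochberg adjusted p = 0.302). Irf2bp1 held 8.27, 8.40 and 8.47 in knockdown, against 8.14, 8.46, 8.41 and 8.20 in control libraries. Irf2bp2 held 11.28, 11.42 and 11.34 in knockdown, against 11.36, 11.19, 11.25 and 11.27 in control libraries, so that both sets overlapped.

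None of the 7 STAT genes passed, and their differences had a median of 0.07. Stat4, which serves interleukin 12 signalling in lymphocytes, held 8.03, 8.22 and 8.03 in knockdown, against 7.98, 7.92, 7.67 and 7.90 in control libraries (difference 0.23, SE 0.11; limma, Benjamini-Hochberg adjusted p = 0.300), without overlap. Stat2, a part of the type I complex, averaged 10.39 ± 0.08 (SD, n = 3) in knockdown mice, against 10.32 ± 0.12 (SD, n = 4) in control mice. Stat3, which serves the interleukin 6 family, held 11.20, 11.22 and 11.29 in knockdown, against 11.18, 11.27, 11.33 and 11.19 in control libraries, a difference of -0.0033 with a 95% CI from -0.13 to 0.13, whose sign turned under quantile normalization (0.0014). The growth factor and cytokine mediators Stat5a, Stat5b and Stat6 differed by -0.06, 0.11 and -0.10. Stat3 and Stat5a lie on opposite strands and overlap by 72 bases, and the use of strand in counting is not stated.

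The guanylate-binding proteins are GTPases that interferon-gamma induces to attack intracellular microbes. Differences were positive in 7 of 8 genes, where 56.2% of all genes were positive. None passed the threshold, and the median of the 8 was 0.17, against 0.02 over all genes. The 8 genes lie in 2 clusters. On chromosome 5 (105077630 to 105293698) lie Gbp4, Gbp6 and Gbp9, with a median difference of 0.49. On chromosome 3 (142493978 to 142638008) lie Gbp2, Gbp2b, Gbp3, Gbp5 and Gbp7, with a median of 0.16. Gbp4 held 9.34, 9.23 and 9.13 in knockdown, against 8.99, 8.82, 8.38 and 8.77 in control libraries. Its groups did not overlap, and the difference was 0.49 (SE 0.14; limma, Benjamini-Hochberg adjusted p = 0.0997, unadjusted p = 0.00645). Gbp6 held 8.16, 6.87 and 7.18 in knockdown, against 6.42, 6.87, 6.32 and 6.66 in control libraries. Knockdown replicate 1 stood well above the other libraries, while knockdown replicate 2 was level with control replicate 2. The difference was 0.84 (SE 0.29; limma, Benjamini-Hochberg adjusted p = 0.169), and without knockdown replicate 1 it was 0.46. Gbp7, whose promoter is shown above, held 11.12, 11.01 and 11.06 in knockdown, against 11.13, 10.75, 10.82 and 10.86 in control libraries (difference 0.17, SE 0.09). Gbp5 held 7.23, 6.35 and 6.59 in knockdown, against 7.14, 6.79, 6.46 and 6.99 in control libraries (difference -0.13, SE 0.23). Gbp2, Gbp2b, Gbp3 and Gbp9 differed by 0.21, 0.16, 0.01 and 0.06. The annotated spans of Gbp4 and Gbp9 overlap by 23773 bases on the same strand, and the family members are similar in sequence, so the assignment of reads within the family is uncertain.

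**Figure D3:**
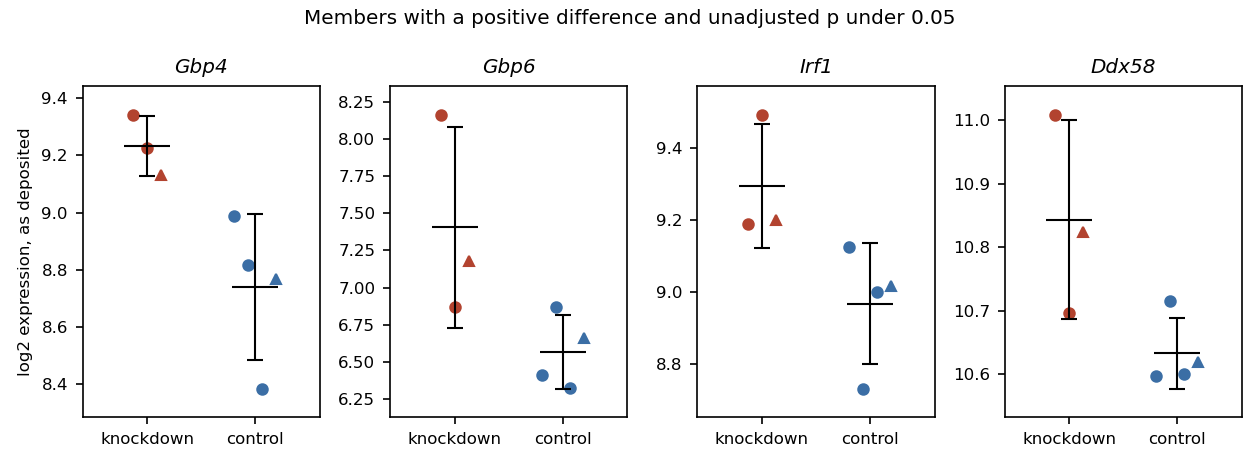
Log2 expression (vertical axis, scaled per panel) of Gbp4, Gbp6, Irf1 and Ddx58, members with a positive difference and an unadjusted p under 0.05 in limma, in knockdown (left) and control (right) libraries. Circles are libraries titled G, triangles those titled CB6, and black marks show the mean ± SD. Knockdown replicate 1 is the highest of Gbp4 (9.34), Gbp6 (8.16) and Ddx58 (11.01), and none of the 4 genes passed the adjusted threshold.

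None of the classical interferon-induced effectors passed. Of 18 genes, 14 had a negative and 4 a positive difference, where 56.2% of all genes were positive. The 18 had a median of -0.07 and a range from -0.33 to 0.20. The median was 0.03 without knockdown replicate 2 and 0.03 in the CB6 pair, and -0.15 in the libraries titled G alone. None had an unadjusted p under 0.05 in limma, where 18.4% of all genes did. The 95% CIs of single genes reached as low as -0.86 and as high as 0.49. For the Ifit genes, whose products bind foreign RNA, the differences were -0.11 (Ifit1), -0.05 (Ifit2), -0.14 (Ifit3) and 0.03 (Ifit3b). In the libraries titled G alone they were -0.24, -0.16, -0.38 and -0.21, in the same order. In the CB6 pair, a single library per group, they were 0.22, 0.21, 0.41 and 0.60. These small differences thus join opposite signs in the title styles. For the genes of the oligoadenylate synthetase family, the differences over all 7 libraries were -0.13 (Oas1a), -0.08 (Oas1b), 0.20 (Oas2) and -0.03 (Oasl2). Ifit3 and Ifit3b are near-identical copies, so their values may share reads. Oas2 was the single effector whose groups did not overlap, with 7.56, 7.34 and 7.31 in knockdown, against 7.30, 7.18, 7.10 and 7.25 in control libraries (limma, Benjamini-Hochberg adjusted p = 0.377).

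Eif2ak2, the gene of the RNA-activated kinase PKR, held 10.46, 10.48 and 10.39 in knockdown, against 10.59, 10.55, 10.31 and 10.56 in control libraries (difference -0.06, SE 0.08). Oas1a held 6.15, 6.23 and 6.01 in knockdown, against 6.34, 6.13, 6.17 and 6.40 in control libraries. Both overlapped between the groups. Mx2, a dynamin-like antiviral GTPase, held 6.68, 6.53 and 6.32 in knockdown, against 6.88, 6.77, 6.52 and 7.02 in control libraries (difference -0.29, SE 0.15; limma, Benjamini-Hochberg adjusted p = 0.348). Bst2, the virus tether tetherin, held 5.78, 6.86 and 6.50 in knockdown, against 6.87, 6.51, 6.80 and 6.64 in control libraries. Its difference of -0.33 (SE 0.24) rested on knockdown replicate 1: without that library it was -0.02. Rsad2, the antiviral enzyme viperin, differed by 0.13, Xaf1, a proapoptotic interferon-induced gene, by 0.15, Usp18, which removes ISG15 from proteins and damps the receptor, by -0.17, Rtp4 by -0.22, Ifi44 by -0.16, Ifi35 by -0.05 and Ifi27 by -0.01.

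Single libraries held many of the extremes of the effectors. Control replicate 1 was the highest library for 11 of the 18 (61.1%), while it was the highest for 16.3% of all genes. Knockdown replicate 2 was the lowest library for 7 of the 18 (38.9%), against 13.3% of all genes. Those 7 were Ifi27, Ifit1, Ifit3, Oas1b, Oasl2, Rtp4 and Usp18. For Ifit1 the extremes were 8.11 in knockdown replicate 2 and 8.85 in control replicate 1, and for Rtp4 they were 8.00 and 8.87. The mean over the 18 genes was 8.17, 7.92 and 8.12 in the knockdown libraries and 8.35, 8.11, 8.03 and 8.10 in the control libraries. The groups overlapped in this mean, with the lowest and the highest library being knockdown replicate 2 and control replicate 1.

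**Figure D4:**
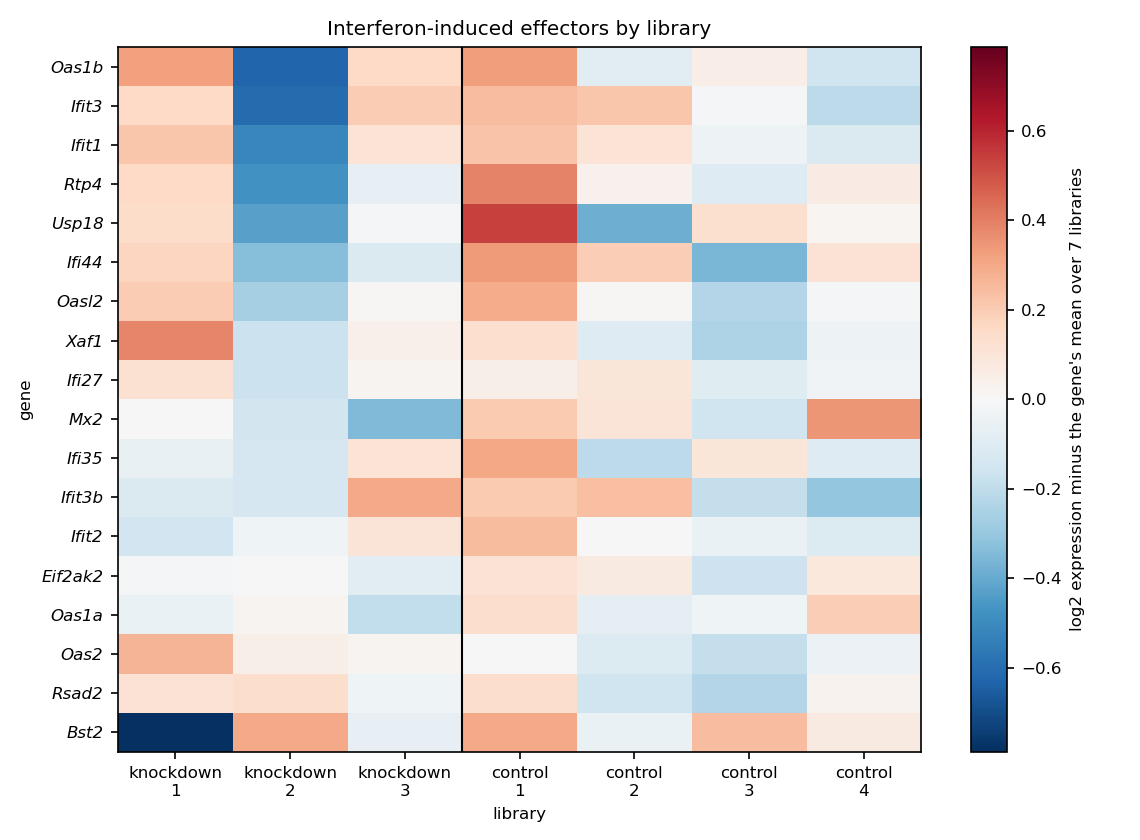
Log2 expression of the 18 interferon-induced effectors (rows) in each library (columns, knockdown left of the line, control right of it), as the difference from the gene's mean over the 7 libraries. Blue is lower and red higher. Control replicate 1 is mostly red (highest library for 11 of 18 genes) and knockdown replicate 2 is the bluest column for Oas1b, Ifit3 and Ifit1, while the deepest blue of all is Bst2 in knockdown replicate 1 (5.78).

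Other genes of these pathways were taken from lists that do not include the members. Of 148 listed genes 118 were measured, and 7 changed (5.93%), 5 higher and 2 lower, against 3.02% of all genes. Of these 7, 6 were among 48 other interferon-induced genes. Samd9l, an interferon-induced antiviral gene, rose, with 13.63, 13.34 and 13.26 in knockdown, against 12.59, 12.79, 12.57 and 12.69 in control libraries (difference 0.75, SE 0.10; limma, Benjamini-Hochberg adjusted p = 0.00541). Tgtp2, an immunity-related GTPase induced by interferon-gamma, rose, with 9.36, 8.68 and 8.90 in knockdown, against 8.16, 8.03, 7.75 and 7.89 in control libraries (difference 1.02, SE 0.17; limma, Benjamini-Hochberg adjusted p = 0.0180). Tgtp1 is a near-identical copy, so the assignment of reads to Tgtp2 is uncertain. Ifi30, a lysosomal thiol reductase, rose, with 10.05, 10.11 and 10.07 in knockdown, against 9.75, 9.81, 9.75 and 9.71 in control libraries (difference 0.32). B2m, the light chain of MHC class I, rose, with 14.94, 14.65 and 14.39 in knockdown, against 14.04, 14.06, 13.74 and 14.17 in control libraries (difference 0.66; limma, Benjamini-Hochberg adjusted p = 0.0488). In the opposite direction, Ly6e, a surface protein that affects virus entry, fell, with 10.38, 10.20 and 10.29 in knockdown, against 10.69, 10.90, 10.65 and 10.84 in control libraries (difference -0.48, SE 0.08; limma, Benjamini-Hochberg adjusted p = 0.0174). Ifitm3, which blocks virus fusion, fell, with 10.59, 10.36 and 10.46 in knockdown, against 10.80, 10.78, 10.77 and 10.86 in control libraries (difference -0.33). All 6 of these genes had groups that did not overlap, against 18.4% of all genes. They were picked for passing the threshold, so this adds no separate support.

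With title style as a covariate, Samd9l, Tgtp2 and Ly6e passed (limma, Benjamini-Hochberg adjusted p = 0.0125, 0.0383 and 0.0426), while Ifi30, Ifitm3, B2m and Nfkbiz did not. The differences of the first named barely moved (Samd9l 0.76, Tgtp2 1.03 and Ly6e -0.49), so, as for Tlr7, that fit is not a separate check. In the 5 libraries titled G alone none of the 7 passed, with Samd9l nearest (difference 0.84, adjusted p = 0.0675). Tgtp2 was lost without knockdown replicate 3 (adjusted p = 0.0640) or control replicate 4 (adjusted p = 0.0623), and Ly6e without knockdown replicate 2 or 3 or control replicate 4 (adjusted p = 0.0905, 0.0804 and 0.0672). The calls of Ifi30, B2m, Ifitm3 and Nfkbiz were lost in 6, 10, 9 and 9 of 16 settings.

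**Figure D5:**
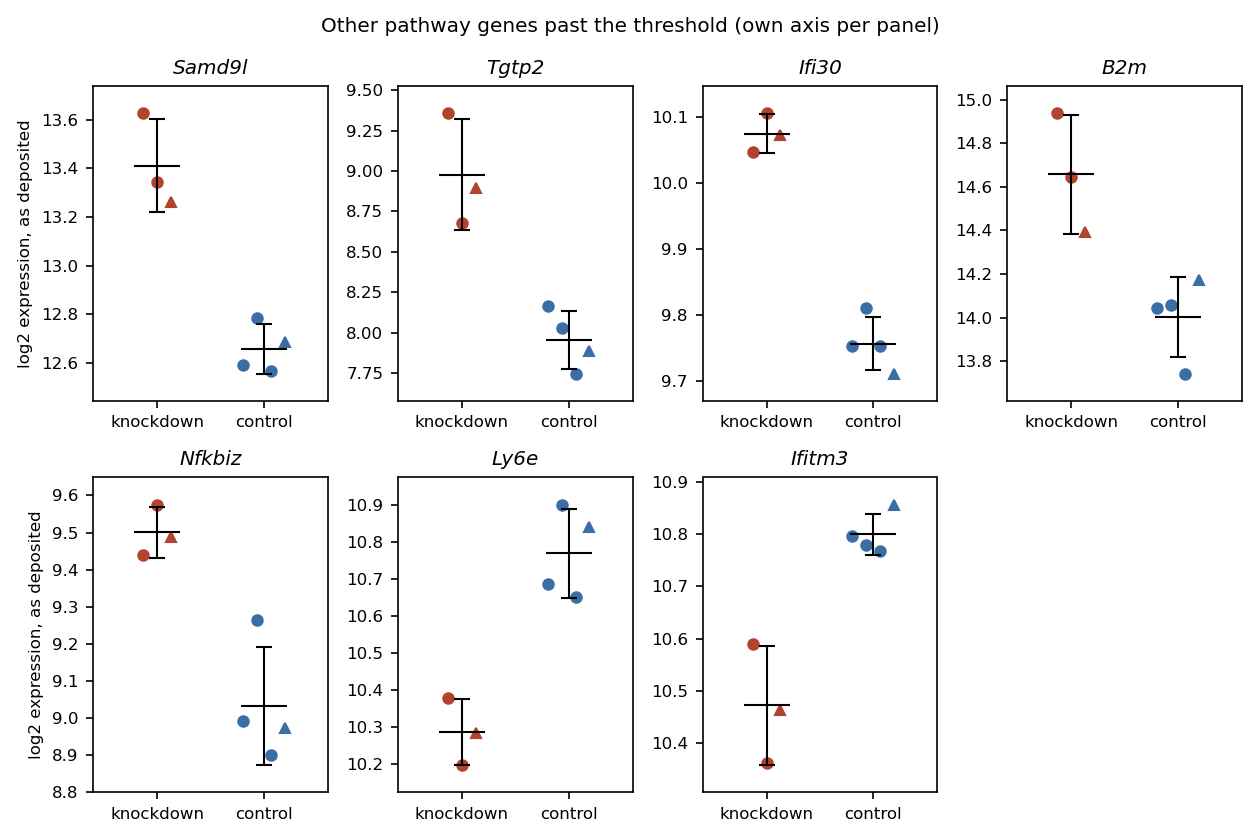
Log2 expression (vertical axis, scaled per panel) of the 7 other pathway genes past the threshold, in knockdown (left) and control (right) libraries. Circles are libraries titled G, triangles those titled CB6, and black marks show the mean ± SD. Samd9l, Tgtp2, Ifi30, B2m and Nfkbiz are higher and Ly6e and Ifitm3 lower in every knockdown library than in any control library.

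Among the signalling genes around the members, a single one passed. Of 28 measured genes of the Toll-like receptor pathway 1 passed (3.57%), near the 3.02% of all genes, and its call was lost in 9 of 16 settings. Nfkbiz, an inducible nuclear regulator of NF-kappaB targets, rose, with 9.44, 9.57 and 9.49 in knockdown, against 8.99, 9.26, 8.90 and 8.97 in control libraries (difference 0.47, SE 0.10; limma, Benjamini-Hochberg adjusted p = 0.0430). None of 8 interferon receptor and JAK kinase genes passed. Nearest was Ifngr1, a chain of the interferon-gamma receptor, with 9.83 ± 0.08 (SD, n = 3) in knockdown mice, against 10.14 ± 0.10 (SD, n = 4) in control mice (difference -0.32; limma, Benjamini-Hochberg adjusted p = 0.0650), and it passed without control replicate 2 (adjusted p = 0.0330). None of 16 negative regulators passed, the smallest p being that of Ptpn11, the gene of the phosphatase SHP2 (difference -0.30; limma, Benjamini-Hochberg adjusted p = 0.0515). Ptpn11 lay at the threshold and passed in 5 of 16 settings, among them quantile normalization (adjusted p = 0.0448), median scaling (0.0498) and leaving out control replicate 2 (0.0427). None of 18 nucleic acid sensing genes passed, the smallest p being that of Tmem173, the gene of STING, with 6.24 ± 0.29 (SD, n = 3) in knockdown mice, against 6.76 ± 0.31 (SD, n = 4) in control mice (limma, Benjamini-Hochberg adjusted p = 0.213).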

How the data were processed

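Each of the 7 libraries came as a list of gene symbols with log2 expression values as the authors deposited them (the base is not stated; another would rescale every difference and change no test). Values ran from 2.32 to 17.25, with library medians of 9.15 to 9.16. BWA and mm10 are named in the submitters' processing notes. The counting, use of strand and normalization could not be learned from the sources used here. Differences between knockdown and control were fitted in R 4.3.3 using limma 3.58.1 (trended variance), over all 12958 genes, with Benjamini-Hochberg adjusted p at most 0.05 as the threshold. Requiring values over the minimum of the tables in 3 or more libraries removed 0 genes. The setting without this filter therefore repeats the main fit in every count of settings. The fit was tested on simulated data. Replicates are separate animals, and the limma and permutation p-values treat their libraries as independent. The mirrored deviations of the CB6 pair (correlation -0.958) go against that independence in the deposited values. The p-values therefore do not measure the spread between animals alone. All 51 members were found in GENCODE M21 (GRCm38), and coordinates are 1-based. Values in every library are given for members with an unadjusted p under 0.05 and for the 10 with the largest difference. They are also given for the highest and lowest mean of each role and for pathway genes past the threshold. Marker genes past the threshold are given by mean or difference or counted. So is the gene with the smallest p of a pathway list with none past it. Oas2, Myd88, Ptprc and the library extremes of Ifit1 and Rtp4 were added after values were seen. So were the differences of the other leukocyte markers and of Slc27a2. Of the members, 2 are not reported here singly and enter the counts and medians alone. The members, lists and tests were chosen with earlier results of these data known. Alternatives were quantile and median scaling, no filter, only genes with means above the median gene, no variance trend, robust variance, title style in the fit, the G or CB6 libraries alone, each library left out, thresholds of 0.1 and 0.01, a shorter ISRE, and leaving out 107 genes whose G values differed by common offsets alone (within 0.003; 0 of them members).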

Additional observations from a re-analysis of the deposited data

Results flagged for a closer look

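Among the 4 control libraries, Eif2ak2 was at 10.31 in control replicate 3, while the other controls lay between 10.55 and 10.59. The gap took up 0.841 of the range of the group, above Dixon's 95% critical value for 4 samples. Of 62 genes looked at in this way 1 was singled out, and chance singles out about 1 in 20 groups.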

How the results depend on the processing

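Tlr7 kept its direction and its call in all 15 settings that tested it, with differences from -3.23 to -2.32. It was not among the genes whose mean lay above the median gene, where 0 members were lower. Among the members, 0 were higher in each setting at the threshold of 0.05 and 1 (Gbp4) at 0.1, where 2 were lower. With 1 library left out, 1 or 2 members were lower and 0 higher. Over all genes, title style in the fit left 44 higher and 147 lower, the G libraries alone 14 and 26, and there were 348 and 498 at a threshold of 0.1 and 28 and 96 at 0.01. With 1 library left out, 31 to 163 were higher and 103 to 317 lower. The median difference of the members was 0.075 in the CB6 pair and ran from -0.030 to 0.066 with 1 library left out, the highest being without knockdown replicate 2. Signs turned for some members, and those named here are not a full list. In the libraries titled G alone they included Ifih1 (-0.013), Irf2bp1 (-0.0059), Ifit3b (-0.21) and Tlr3 (0.016). In the CB6 pair they included Ifit3 (0.41), Rsad2 (-0.061) and Gbp9 (-0.19). Under quantile normalization the sign of Stat3 turned (0.0014). With 1 library left out, signs turned for Gbp5 (-0.38 to 0.061), Stat3 (-0.030 to 0.026) and Tlr1 (-0.24 to 0.0045). The causes were not tested. The share of member promoters with an ISRE lacking its last base was 52.6%, against 8.55% of measured genes. No paired analysis was possible because replicate numbers were given in accession order and pair no animals. Without read counts, depth and counting error are unknown.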

Other observations

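Tgtp2 belongs to the immunity-related GTPases, of which other members were looked at after its value was seen. Irgm2 held 9.52, 9.14 and 9.17 in knockdown, against 8.95, 8.67, 8.55 and 8.76 in control libraries (difference 0.54, SE 0.13; limma, Benjamini-Hochberg adjusted p = 0.0607). Iigp1 held 10.54, 9.87 and 9.95 in knockdown, against 9.87, 9.50, 9.15 and 9.61 in control libraries (difference 0.59, SE 0.20; limma, Benjamini-Hochberg adjusted p = 0.161). The groups did not overlap for either gene, though for Iigp1 there was almost no gap (9.870 in knockdown replicate 2 against 9.868 in control replicate 1). Igtp differed by 0.41 and Irgm1 by 0.18, with overlapping groups. Igtp and Irgm2 occupy overlapping stretches of chromosome 11 on the same strand, so their reads may be shared. Knockdown replicate 1 was the highest library for Tgtp2, Irgm1, Irgm2, Igtp and Iigp1.

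The genes beside Tlr7 on chromosome X were also looked at after its value was seen. The nearest measured genes on either side, on GRCm38, were Tmsb4x, with 12.27 ± 0.14 (SD, n = 3) in knockdown mice, against 12.41 ± 0.14 (SD, n = 4) in control mice, and Prps2, with 11.47 ± 0.09 (SD, n = 3) in knockdown mice, against 11.37 ± 0.11 (SD, n = 4) in control mice. They differed by -0.14 and 0.09. The next ones out, Egfl6 and Msl3, differed by -0.03 and 0.05. None of these 4 passed (limma, Benjamini-Hochberg adjusted p from 0.484 to 0.950). Tlr8, which lies between Tmsb4x and Tlr7, was not analysed here.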
